A study of Mus musculus with 21 samples.

Results

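The genes described here are 9 of the 23420 gene symbols in the count table, chosen by name as genes of dendritic cell (DC) identity and maturation. Flt3 and Zbtb46 mark the classical DC lineage. Xcr1, Clec9a and Batf3 belong to type 1 classical DCs (cDC1s), and Cd209a to monocyte-derived DCs. Fscn1, Ccr7 and Cd83 rise when DCs mature and migrate. All 9 symbols were found in the table, and each was measured in 21 RNA-Seq libraries of inflammatory monocytes (IMs).

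Classical DCs arise in the marrow from FLT3-dependent precursors, take up antigen in tissues and, once matured, use the chemokine receptor CCR7 to travel to draining lymph nodes. cDC1s depend on the transcription factor BATF3 and carry antigen from dead cells to CD8 T cells. Monocytes can take on part of this program in inflamed tissue, so that single marker genes are shared between the lineages.

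The study compared tumor-infiltrating IMs (TIMs) with marrow IMs. In 1 model, 500000 KAL-LN2-E1 (LN2E1) lung squamous carcinoma cells were placed in the lung of FVB mice, and TIMs were taken from the primary tumors and from lymph node metastases, with 5 libraries each. In the other, 300000 LN4K1 cells were given to DBA2 mice through a vein, and TIMs were taken from the lungs, with 5 libraries. Marrow (BM) IMs came from healthy, uninjected FVB and DBA2 mice, with 3 libraries per strain. The methods describe mice as adults of both sexes and the libraries as technical replicates, so p-values here measure the spread between libraries, which may be technical. Each model is 1 cell line in 1 strain, so line, strain, route and site cannot be told apart between the models, nor tumor and tissue of origin between TIMs and BM IMs. Cells were enriched with a monocyte kit and sorted as CD45+CD11b+Ly6Chi Ly6G-, with Siglec-F+ cells removed from lung. No DC marker was part of this gate.

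Libraries held between 80772922 and 101043568 counts. Levels are CPM, counts scaled to the size and composition of each library. The 6 monocyte and sort genes in the table (Ptprc, Itgam, Ly6c2, Ccr2, Csf1r and Fcgr1) each had 10 or more counts in every library and summed to between 5290 and 10175 CPM. The LN4K1 lung replicate 3 stood apart from its group for several of the 9 genes, and values that rest on it are given with and without it. Lymph node libraries were also uneven, with the lowest and highest Flt3 values of all TIMs. In bulk RNA, more cells of a type and more RNA per cell cannot be told apart.

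Most of the 9 genes rose in the LN2E1 model and fewer did in the LN4K1 model, and the steepest rises were in the maturation genes. In primary tumor TIMs, 7 genes were higher than in FVB BM IMs and none was lower, where 33.3% of the 14569 genes tested were higher and 28.6% lower (adjusted p below 0.05). In lymph node TIMs, 5 genes were higher and none lower, with 20.2% of all tested genes higher and 17.2% lower. In LN4K1 lung TIMs, 3 genes were higher and 1 lower than in DBA2 BM IMs, with 13.9% higher and 11% lower among all tested genes. The 9 genes had median log2 fold changes of 2.07 (primary tumors), 2.14 (lymph nodes) and 1.58 (LN4K1 lungs), against 0.08, -0.04 and 0.03 over all tested genes. Under the stricter rule of the study (adjusted p below 0.0001 with a log2 fold change beyond 1 either way), Flt3, Fscn1, Ccr7 and Cd83 qualified in primary tumors, Cd83 in lymph nodes and none of the 9 in LN4K1 lungs by edgeR. In LN4K1 lungs 5 had an unadjusted p under 0.05 in edgeR's test, 4 of them higher, and DESeq2 gave 4 qualifying genes. In lymph nodes DESeq2 also gave 4, and in primary tumors a filter of 10 counts in every library left 2. Of all tested genes 12.9%, 5.71% and 2.97% qualified by edgeR. The shares of all genes for the unadjusted p, for DESeq2 and for the other filter are not given here, so those counts have no background beside them. All 9 genes passed the low-count filter in these 3 comparisons, but Fscn1 did so through its TIM libraries alone in each, since no BM library held more than 6 counts of it. Ccr7 also needed its TIM libraries to pass in each. The filter asks for 10 counts in 3 libraries, and FVB replicate 3 and DBA2 replicate 1 held 0 counts of it. The first 2 comparisons share the FVB BM libraries.

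**Figure D1:**
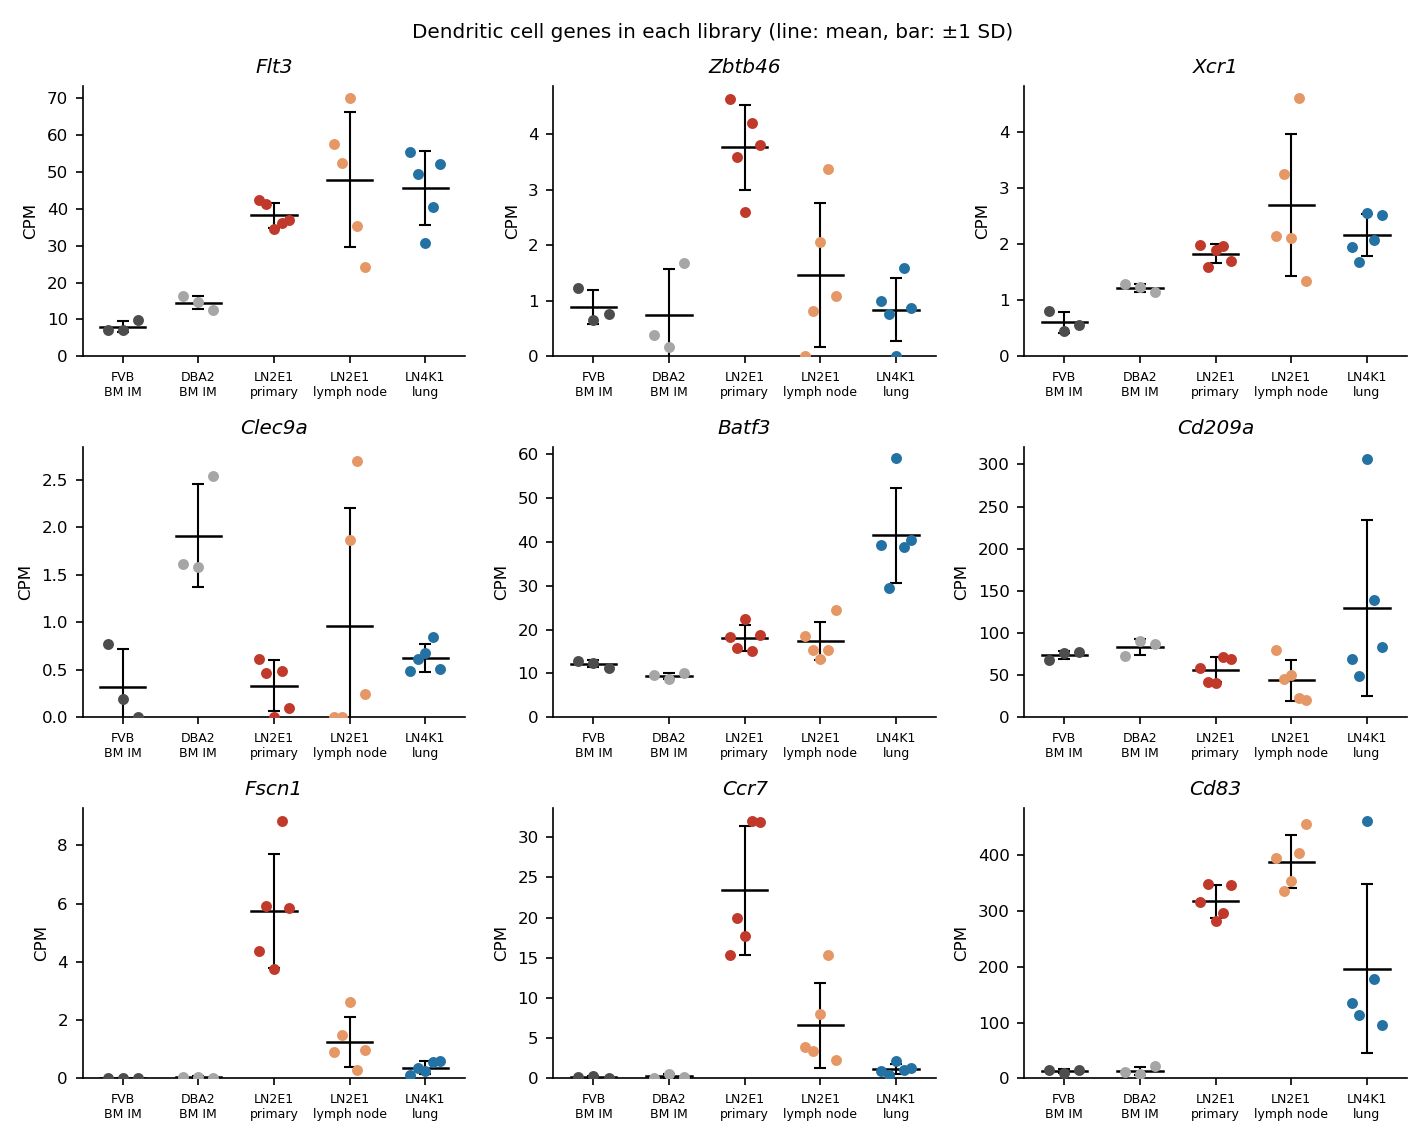
Level of each gene in CPM (vertical axes, each from 0) in every library of the 5 groups; points are libraries, lines the group mean and bars 1 SD. Flt3 and Cd83 were above both BM groups in all 15 TIM libraries, Fscn1 and Ccr7 were highest in primary tumors, and Batf3 was highest in LN4K1 lungs.

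Flt3 encodes the receptor for FLT3 ligand, on which DC precursors depend. Its levels were 7.23, 7.01 and 9.76 CPM in FVB BM IMs and 16.3, 14.7 and 12.7 CPM in DBA2 BM IMs. The primary tumors gave 42.4, 41.4, 34.5, 36.2 and 36.9 CPM, and LN4K1 lung TIMs 55.5, 49.4, 30.9, 40.5 and 52.2 CPM. Lymph node TIMs ranged further, with 57.7, 52.5, 70.2, 35.3 and 24.2 CPM. Every TIM library lay above every BM library, and the 3 TIM groups overlapped one another. Flt3 rose by 2.23 on the log2 scale in primary tumors (SE 0.16, adjusted p = 2.7e-06), by 2.58 in lymph nodes (SE 0.36, adjusted p = 0.000397) and by 1.58 in LN4K1 lungs (SE 0.21, adjusted p = 0.000594). All adjusted p-values here are from edgeR's quasi-likelihood test, adjusted by the Benjamini-Hochberg method over all genes tested. Between lymph nodes and primary tumors the difference of 0.33 missed the threshold (SE 0.24, adjusted p = 0.422). The rise in primary tumors exceeded that in LN4K1 lungs by 0.68 (SE 0.25, adjusted p = 0.061), which passed the threshold without FVB replicate 3 (0.86, adjusted p = 0.0212), LN4K1 lung replicate 1 (0.76, adjusted p = 0.0373) or LN4K1 lung replicate 3 (0.56, adjusted p = 0.0468).

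Flt3 was also the only one of the 8 genes tested that differed between the strains' BM IMs, at a log2 fold change of 0.88 (SE 0.21, adjusted p = 0.0214) for DBA2 over FVB, where 11.5% of 12905 genes were higher in DBA2 and 9.57% lower. That call was lost without DBA2 replicate 1 (0.79, adjusted p = 0.0686) or 2 (0.88, adjusted p = 0.0646), or without FVB replicate 1 (0.81, adjusted p = 0.0738) or 2 (0.78, adjusted p = 0.087). Xcr1 (1.03, adjusted p = 0.176) and Clec9a (2.62, adjusted p = 0.154) were also higher in every DBA2 than in every FVB BM library, without passing the test. Batf3, the other cDC1 gene, was lower in every DBA2 than in every FVB BM library, also without passing (-0.34, adjusted p = 0.169). The share of all genes without overlap between the strains is not given here. The 6 progenitor markers (Kit, Cd34, Mpo, Elane, Prtn3 and Ctsg) summed to between 2138 and 2669 CPM in BM IMs and to between 17 and 235 CPM in TIMs. Their part in the Flt3 values was not tested.

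Plasmacytoid DC genes were higher in TIMs too. Plasmacytoid DCs are the interferon-producing DC type and also carry FLT3. The 4 markers Siglech, Ccr9, Ly6d and Pacsin1 summed to between 0.19 and 3.47 CPM in BM IMs. In TIMs they summed to between 135 and 361 CPM in primary tumors, 72.2 and 956 CPM in lymph nodes and 5.2 and 107 CPM in LN4K1 lungs. All 4 had 10 or more counts in every primary tumor and lymph node library, and 3 of 4 did in LN4K1 lungs, whereas Pacsin1 was at 0 in every DBA2 BM library. In each TIM group the library with the lowest Flt3 also had the lowest marker sum. The library with the highest Flt3 had the highest sum in lymph nodes, but not in primary tumors (213 CPM against 361 CPM in replicate 4) or LN4K1 lungs (43.8 CPM against 107 CPM in replicate 5). Across the 21 libraries, after each group's mean was subtracted from log2 values, Flt3 correlated with the sum at r = 0.80, a description over libraries that share their groups' cells, depth and sorting. The correlation was almost as high with the sum of T cell markers (r = 0.79) and was 0.68 with epithelial markers. In lymph nodes the T cell and plasmacytoid sums had the same order of libraries, while Cd3e was at most 0.16 CPM there. These sums therefore do not tell the cell types apart. Of all genes whose log2 CPM averaged above 1, the closest to Flt3 on this measure were Klk1 (r = 0.90), Rpusd4 (r = 0.87) and Ptprcap (r = 0.86). In lymph nodes Klk1 had the same order of libraries as Siglech, and in LN4K1 lungs it was at most 0.87 CPM. The part of plasmacytoid DCs and of the other cells in the Flt3 values was not tested.

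**Figure D2:**
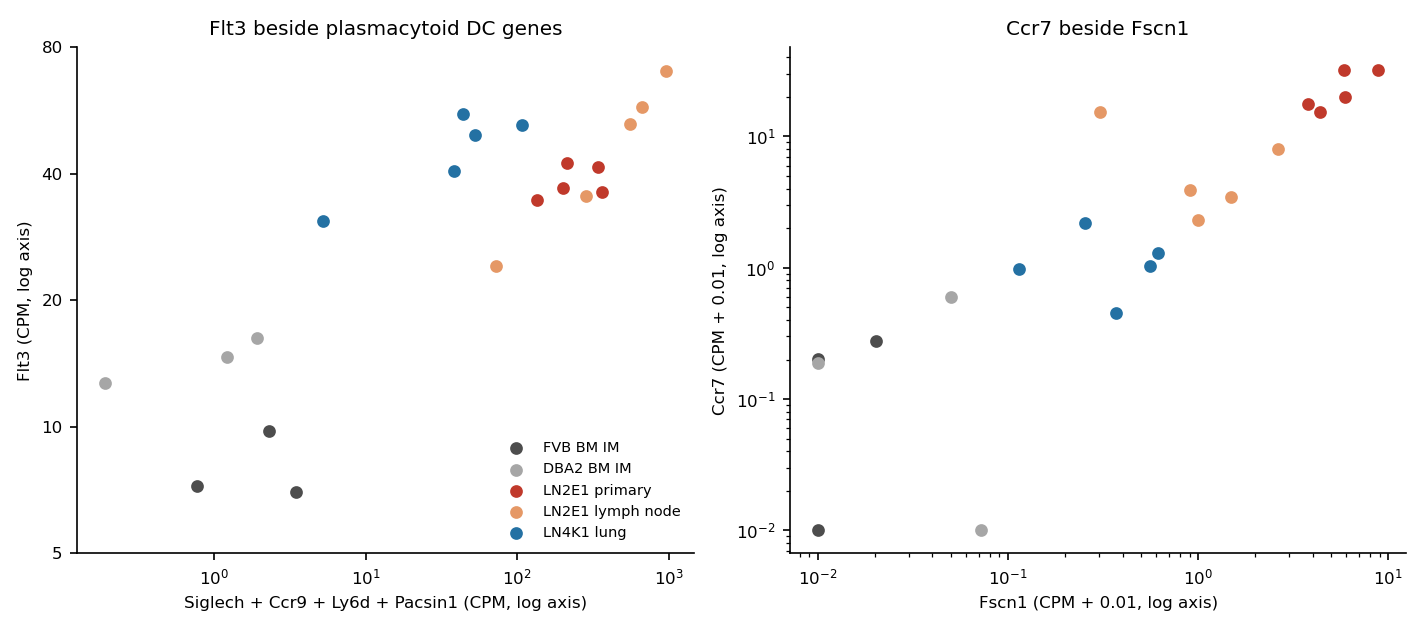
Left, Flt3 against the summed level of 4 plasmacytoid DC genes in each library, both in CPM on log axes; right, Ccr7 against Fscn1 in CPM with 0.01 added, on log axes. The 15 TIM libraries lie above the 6 BM libraries in Flt3 (left), and primary tumor TIMs lie at the upper right of the Ccr7 and Fscn1 plot.

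The Flt3 gene lies on chromosome 5 (chr5:147330741-147400489, minus strand, GRCm38, GENCODE vM21). The 250 bases before its RefSeq start are shown because Flt3 was the lineage gene that rose in all 3 tumor settings, and those before Fscn1 because its rise over FVB BM IMs was the steepest of the 9 genes (chr5:142960343-142973185, plus strand). Both sequences are RefSeq sequences of GRCm38.p6, read 5′ to 3′ on the gene's strand, from chr5:147400490-147400739 (minus strand) and chr5:142960105-142960354 (plus strand), and capitals mark a match to a motif searched.
Flt3: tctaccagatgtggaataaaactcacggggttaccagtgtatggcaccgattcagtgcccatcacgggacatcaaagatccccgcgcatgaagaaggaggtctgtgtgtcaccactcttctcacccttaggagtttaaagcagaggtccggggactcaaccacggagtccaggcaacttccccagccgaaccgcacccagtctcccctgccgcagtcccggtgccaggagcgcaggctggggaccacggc
Fscn1: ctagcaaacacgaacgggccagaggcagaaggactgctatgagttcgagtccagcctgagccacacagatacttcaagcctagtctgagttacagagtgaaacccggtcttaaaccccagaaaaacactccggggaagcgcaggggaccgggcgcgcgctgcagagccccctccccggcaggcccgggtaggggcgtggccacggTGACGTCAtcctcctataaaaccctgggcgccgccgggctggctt
The motifs were the cyclic AMP response element TGACGTCA, the AP-1 site TGANTCA, the E-box CACGTG, the PU.1 site GAGGAAGT and the IRF and NF-kB consensus sequences, on both strands; the first 2 do not contain each other. The Fscn1 sequence held TGACGTCA 45 bases before the start, a motif found in 1.55% of 32851 RefSeq upstream sequences of the same length. The Flt3 sequence held none of the 6. Of the 7 genes with an entry, Batf3 and Xcr1 held the E-box (6.02% of all sequences) and Zbtb46 the AP-1 site (6.75%), and none held the PU.1 site (2.44%), the IRF consensus (2.98%) or the NF-kB consensus (7.25%). The Zbtb46 and Batf3 entries lie inside the GENCODE genes, at internal starts, so their matches are not upstream of the annotated gene. Ccr7 and Cd83 had no entry. These are matches of letters and carry no measurement of binding. In the same annotation, with strands in brackets, the other genes lie as follows: Zbtb46 at chr2:181387762-181459426 (minus), Xcr1 at chr9:123852315-123862029 (minus), Clec9a at chr6:129408862-129424763 (plus), Batf3 at chr1:191097847-191108945 (plus), Cd209a at chr8:3743397-3748984 (minus), Ccr7 at chr11:99144196-99155077 (minus) and Cd83 at chr13:43784775-43803132 (plus). All 9 are protein-coding, and counts were taken over their exons.

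Zbtb46, a transcription factor restricted among immune cells largely to classical DCs, was low and rose past the threshold in primary tumors. Its levels were 1.24, 0.662 and 0.759 CPM in FVB BM IMs and 0.39, 0.16 and 1.69 CPM in DBA2 BM IMs. In primary tumors Zbtb46 reached 4.63, 3.58, 2.61, 4.2 and 3.8 CPM, all above every BM library. Lymph node TIMs held 0.0121, 0.808, 2.06, 3.37 and 1.08 CPM, and LN4K1 lung TIMs 0.997, 0.76, 0, 1.58 and 0.87 CPM, and both groups overlapped their BM IMs. The 0 was LN4K1 lung replicate 3, and the lowest lymph node value was 1 count. The log2 fold change was 2.07 (SE 0.33, adjusted p = 0.000469) in primary tumors, 0.73 (SE 1.21, adjusted p = 0.685) in lymph nodes and 0.10 (SE 1.23, adjusted p = 0.966) in LN4K1 lungs. The wide SE in the last 2 leaves changes of several-fold in either direction undetectable. The difference between primary tumors and LN4K1 lungs was not past the threshold (1.97, SE 1.27, adjusted p = 0.273), nor was that between lymph nodes and primary tumors (-1.35, SE 0.85, adjusted p = 0.355).

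Among the cDC1 genes, Batf3 was the most abundant and rose most in LN4K1 lungs. Batf3 encodes the AP-1 family factor required for cDC1 development, and activated T cells and monocytes also express it. FVB BM IMs held 12.9, 12.4 and 11.3 CPM and DBA2 BM IMs 9.6, 8.68 and 10.1 CPM. Primary tumors gave 18.4, 15.8, 22.5, 15.1 and 18.7 CPM, and the lymph nodes 18.5, 15.3, 13.4, 15.4 and 24.5 CPM. LN4K1 lung TIMs held 39.3, 29.6, 59.2, 38.9 and 40.5 CPM, above all other libraries, with replicate 3 the highest. All 3 TIM groups were separate from their BM IMs. Against BM IMs the log2 fold change was 0.55 (SE 0.15, adjusted p = 0.0112) in primary tumors, 0.52 (SE 0.24, adjusted p = 0.124) in lymph nodes and 2.06 (SE 0.22, adjusted p = 0.00015) in LN4K1 lungs. The rise in LN4K1 lungs over DBA2 BM IMs exceeded that in primary tumors over FVB BM IMs by 1.48 on the log2 scale (interaction -1.48, SE 0.26, adjusted p = 0.00116), with 13.3% of the 15182 genes tested lower and 13.2% higher in this contrast. Batf3 was most like Gemin7 (r = 0.91), Fosl2, another AP-1 family gene (r = 0.90), and Ppp4c (r = 0.88) within groups.

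Xcr1, the receptor for the chemokine XCL1 and a surface marker of cDC1s, was below 5 CPM in every library. It stood at 0.818, 0.459 and 0.554 CPM in FVB BM IMs and at 1.29, 1.24 and 1.15 CPM in DBA2 BM IMs. In primary tumors the values were 1.98, 1.59, 1.91, 1.98 and 1.71 CPM, in lymph nodes 2.14, 3.26, 2.11, 4.62 and 1.35 CPM and in LN4K1 lungs 1.95, 1.69, 2.57, 2.08 and 2.53 CPM. Each TIM group lay above its own BM group without overlap, and the 3 TIM groups overlapped. Log2 fold changes were 1.57 (SE 0.36, adjusted p = 0.00378) in primary tumors, 2.14 (SE 0.69, adjusted p = 0.0345) in lymph nodes and 0.74 (SE 0.33, adjusted p = 0.141) in LN4K1 lungs. The lymph node call was lost when any of FVB replicates 1, 2 or 3 or lymph node replicates 2 or 4 was left out, with log2 fold changes between 1.86 and 2.40 and adjusted p-values of 0.0839, 0.141, 0.101, 0.0608 and 0.081 in that order. Genes most like Xcr1 were Stambpl1 (r = 0.78), Caap1 (r = 0.76) and Rexo4 (r = 0.74).

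Clec9a, the cDC1 receptor for exposed actin filaments of dead cells, did not pass the test for a rise in any tumor setting. FVB BM IMs held 0.773, 0.194 and 0 CPM, and DBA2 BM IMs 1.61, 1.59 and 2.54 CPM. Primary tumor TIMs held 0.614, 0.463, 0, 0.486 and 0.093 CPM, lymph node TIMs 0, 0, 1.87, 2.7 and 0.249 CPM and LN4K1 lung TIMs 0.487, 0.612, 0.675, 0.848 and 0.513 CPM. The 4 libraries at 0 were FVB replicate 3, primary tumor replicate 3 and lymph node replicates 1 and 2. All LN4K1 lung libraries lay below all DBA2 BM libraries, and Clec9a fell by 1.68 on the log2 scale there (SE 0.43, adjusted p = 0.019). Without DBA2 replicate 3 the adjusted p was 0.111 (log2 fold change -1.42). In primary tumors (0.04, SE 1.48, adjusted p = 0.983) and lymph nodes (1.59, SE 2.19, adjusted p = 0.618) no change was detectable at these counts, which were at most 219 in a library. Reads on 184 exon bases that Clec9a shares with Clec1b on the same strand may have been assigned to either gene. Within groups Clec9a was most like Msantd4 (r = 0.88), Slc25a10 (r = 0.86) and Mgme1 (r = 0.82).

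Cd209a, a C-type lectin of the DC-SIGN family used as a marker of monocyte-derived DCs, was abundant in BM IMs already. FVB BM IMs held 67.9, 76.0 and 77.8 CPM, and DBA2 BM IMs 73.3, 90.8 and 87.0 CPM. Levels of 58.8, 41.9, 40.4, 71.9 and 68.8 CPM were seen in primary tumors, and of 79.3, 45.8, 50.7, 23.3 and 20.02 CPM in lymph nodes. LN4K1 lung TIMs held 69.6, 49.4, 306, 139 and 82.8 CPM. All 3 TIM groups overlapped their BM IMs, and replicate 3 of the LN4K1 lungs was the highest of all libraries. Against BM IMs it changed by -0.41 (SE 0.19, adjusted p = 0.0897) in primary tumors, -0.75 (SE 0.39, adjusted p = 0.166) in lymph nodes and 0.55 (SE 0.53, adjusted p = 0.503) in LN4K1 lungs. Without LN4K1 lung replicate 3 the last value was -0.05 (adjusted p = 0.912). The first passed the threshold without primary tumor replicate 4 (-0.51, adjusted p = 0.0445), and the second without lymph node replicate 1 (-1.08, adjusted p = 0.0188). Cd209a belongs to a cluster of related genes on chromosome 8, so its level is uncertain if reads were shared with its relatives, which was not tested. Cd209d, one of them, was the gene most like it within groups (r = 0.92), followed by Sc4mol (r = 0.88) and Fdps (r = 0.86), both of sterol synthesis.

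The maturation genes carried the largest changes. Cd83, a surface glycoprotein of mature DCs and activated B cells that stabilizes MHC class II and CD86 at the cell surface, stood at 14.8, 9.77 and 15.5 CPM in FVB BM IMs and at 10.8, 8.22 and 21.5 CPM in DBA2 BM IMs. The primary tumor libraries gave 316, 348, 283, 296 and 347 CPM, and the lymph node libraries 395, 336, 354, 405 and 456 CPM. LN4K1 lung TIMs held 135, 114, 462, 179 and 95.1 CPM. Every TIM library lay far above every BM library, and LN4K1 lung replicate 3 was the highest of all. On the log2 scale Cd83 rose by 4.55 in primary tumors (SE 0.19, adjusted p = 1.67e-07), by 4.86 in lymph nodes (SE 0.22, adjusted p = 3.81e-07) and by 3.79 in LN4K1 lungs (SE 0.64, adjusted p = 0.00226). In LN4K1 lungs 1 library weighed heavily: without replicate 3 the value was 3.20, a 9.19-fold change in place of 13.8-fold (adjusted p = 0.000126). The difference in change between primary tumors and LN4K1 lungs was 0.78 (SE 0.60, adjusted p = 0.363) with that library and 1.36 (adjusted p = 0.0164) without it. Lymph node and primary tumor TIMs differed by 0.30 (SE 0.10, adjusted p = 0.0786). Cd83 was most like Gm6377 (r = 0.84), Filip1l (r = 0.84) and Pmaip1 (r = 0.83) within groups.

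Ccr7, the receptor that guides mature DCs and naive T cells toward lymph nodes, was nearly absent from BM IMs and highest in primary tumors. FVB BM IMs held 0.193, 0.265 and 0 CPM (17, 26 and 0 counts) and DBA2 BM IMs 0, 0.589 and 0.18 CPM. Ccr7 stood at 15.3, 19.9, 17.7, 32.0 and 31.9 CPM in primary tumors. Lymph node TIMs held 3.91, 3.44, 8.0, 15.3 and 2.32 CPM and LN4K1 lung TIMs 0.963, 0.443, 2.19, 1.02 and 1.28 CPM. Primary tumor and lymph node TIMs lay above all BM libraries, and the lowest primary tumor library was just above the highest lymph node library. LN4K1 lung TIMs overlapped their BM IMs in 1 library on each side. Ccr7 changed over BM IMs by 7.27 (SE 0.77, adjusted p = 4.87e-05) on the log2 scale in primary tumors, 5.44 (SE 1.29, adjusted p = 0.00825) in lymph nodes and 2.12 (SE 1.19, adjusted p = 0.232) in LN4K1 lungs. The first 2 rest on few FVB counts and were 8.02 and 6.10 without FVB replicate 2, and 6.65 and 4.85 without FVB replicate 3, all past the threshold. The genes most like Ccr7 within groups were Gm14047, Mtfmt and Nae1 (r = 0.72, 0.72 and 0.71).

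Fscn1 encodes fascin, which bundles actin in the dendrites of mature DCs and is also made by mesenchymal and many tumor cells. FVB BM IMs held 0, 1 and 0 counts and DBA2 BM IMs 6, 4 and 0 counts, or at most 0.0616 CPM. The TIMs of primary tumors held 4.39, 5.93, 3.77, 8.85 and 5.85 CPM, those of lymph nodes 0.896, 1.48, 2.61, 0.296 and 0.986 CPM and those of LN4K1 lungs 0.104, 0.359, 0.243, 0.548 and 0.602 CPM. Each TIM group lay above both BM groups, primary tumors lay above lymph nodes, and lymph nodes overlapped LN4K1 lungs. With 1 count in all FVB BM libraries, the ratio of primary tumor to FVB BM IMs was 1719, with an exact 95% counting interval of 308 to 67936 (adjusted p = 2.07e-06), and that of lymph node to FVB BM IMs was 375, with an interval of 67 to 14846 (adjusted p = 0.00351). These intervals cover counting error only. The 1 count was in FVB replicate 2, and without that library the adjusted p was 2.8e-05 and 0.0136. In LN4K1 lungs the log2 fold change was 3.32 (SE 1.22, adjusted p = 0.0764), and it passed the threshold without replicate 3 (3.44, adjusted p = 0.0426), in both cases having passed the filter through the lung libraries alone. Fscn1 failed the low-count filter between the strains, where an exact two-sided permutation test gave p = 0.4, with 0.1 the smallest p that 3 against 3 libraries allow. Rrm2b (r = 0.82), Kdelc1 (r = 0.76) and Dlgap5 (r = 0.75) were most like Fscn1 within groups.

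Fscn1 and Ccr7 were the 2 of the 9 genes that separated the metastatic lymph node from the primary tumor, where 6.15% of 13488 tested genes were higher in lymph nodes and 5.55% lower. Ccr7 fell by 1.81 (SE 0.48, adjusted p = 0.0334) and Fscn1 by 2.19 (SE 0.53, adjusted p = 0.0221) on the log2 scale in lymph node TIMs, with no overlap of libraries for either gene. Both calls sat near the threshold. Without primary tumor replicate 2, 4 or 5 the adjusted p was 0.0556, 0.0828 and 0.0767 for Ccr7 and 0.0526, 0.0738 and 0.0526 for Fscn1, and without lymph node replicate 2 it was 0.0665 for Ccr7. Their change over BM IMs also differed between primary tumors and LN4K1 lungs, with an interaction of 5.17 (SE 1.23, adjusted p = 0.00708) for Ccr7 and an adjusted p of 0.00191 for Fscn1. The fitted size for Fscn1 depends on the single FVB count, and Fscn1 passed the low-count filter of this contrast through its TIM libraries alone. Of all 15182 genes tested in this contrast, 13.2% were higher and 13.3% lower. For Ccr7 the interaction was 3.66 (adjusted p = 0.0658) without DBA2 replicate 2, 5.88 (adjusted p = 0.0146) without FVB replicate 2 and 4.57 (adjusted p = 0.0088) without FVB replicate 3. Both genes had the same order of groups. Inside groups r was -0.15 over 21 libraries, which include BM libraries with at most 59 counts of Ccr7 and 6 of Fscn1. In primary tumors both genes were highest in replicate 4. In lymph nodes replicate 4 had the highest Ccr7 and the lowest Fscn1.

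By group median, fibroblast genes had the same order among the TIMs as Fscn1 and Ccr7. Macrophage genes were nearly level between primary tumors and lymph nodes, with overlapping ranges (84.6 to 253 and 78.7 to 208 CPM). Genes of T cells, epithelium and endothelium had other orders. So did the marker sums of B cells, NK cells, mature neutrophils, marrow progenitors, plasmacytoid DCs and classical DCs. The median macrophage sum was 124.7 CPM in primary tumors, 124.4 CPM in lymph nodes and 40.1 CPM in LN4K1 lungs. It was 111.9 CPM in FVB and 50.7 CPM in DBA2 BM IMs. The 5 fibroblast markers (Col1a1, Col1a2, Col3a1, Pdgfra and Dcn) summed to between 361 and 1101 CPM in primary tumors, between 0.836 and 87.1 CPM in lymph nodes, between 1.31 and 42.9 CPM in LN4K1 lungs and at most 0.359 CPM in BM IMs, and all 5 had 10 or more counts in every primary tumor library. The 7 T cell markers (Cd3e, Cd3d, Cd3g, Cd5, Lck, Cd4 and Cd8a) summed to between 10.6 and 29.9 CPM in primary tumors, 4.79 and 60.4 CPM in lymph nodes, 9.11 and 27.6 CPM in LN4K1 lungs and at most 3.34 CPM in BM IMs, and mean Cd3e was at most 0.91 CPM in any group. By median the T cell sum was highest in lymph nodes, at 35.6 CPM against 18.9 CPM in primary tumors. The 7 epithelial markers, genes that carcinoma cells also express, summed to at most 2.44 CPM in BM IMs, 59.7 to 104 CPM in primary tumors, 10.0 to 140 CPM in lymph nodes and 1.27 to 119 CPM in LN4K1 lungs. The 4 endothelial markers summed to between 4.33 and 13.6 CPM in BM IMs, 51.5 and 70.8 CPM in primary tumors, 55.5 and 110 CPM in lymph nodes and 5.69 and 15.6 CPM in LN4K1 lungs. Within groups, the fibroblast sum correlated with Fscn1 at r = 0.19 and with Ccr7 at r = 0.16, over libraries that include BM IMs with few counts. Fscn1 had a higher r with several other sums, among them those of plasmacytoid DCs (0.52), T cells (0.44) and macrophages (0.39). In primary tumors the fibroblast sum and Fscn1 were both highest in replicate 4 and lowest in replicate 3. In lymph nodes their highest and lowest libraries differed. A CD45+CD11b+ gate is set to leave out fibroblasts, epithelium, endothelium and most T cells. The part of these cells and of macrophages in the Fscn1 and Ccr7 values was not tested.

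**Figure D3:**
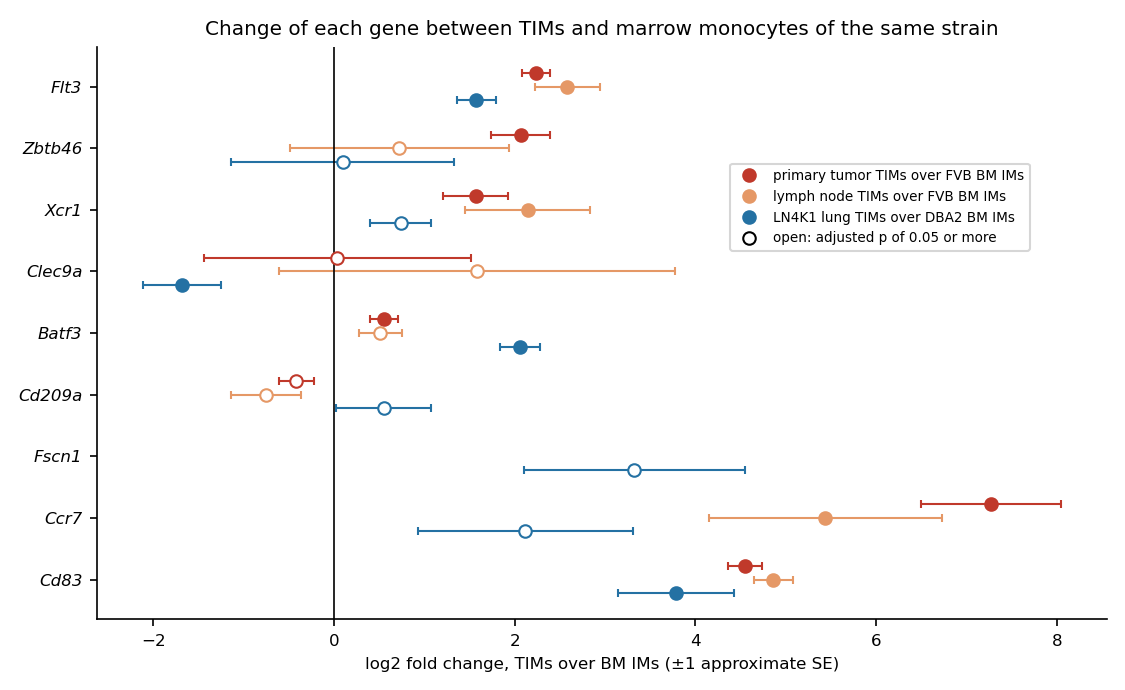
Log2 fold change of TIMs over BM IMs of the same strain (horizontal axis, with 1 approximate SE) for each gene in 3 comparisons; filled points had an adjusted p under 0.05. Fscn1 is shown for LN4K1 lungs alone because FVB BM IMs held 1 count of it; Cd83 and Flt3 are to the right of 0 in all 3 comparisons, and Ccr7 reaches 7.27 in primary tumors.

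Per kilobase of exon, the levels of the 9 genes spanned a wide range in TIMs. Cd83 was the highest in the LN2E1 model, at a mean of 124 CPM per kb in primary tumors, 151 in lymph nodes and 76.6 in LN4K1 lungs, where Cd209a stood at 81.8. Without LN4K1 lung replicate 3 the last 2 means were 50.8 and 53.8 CPM per kb. In primary tumors Cd209a (35.6), Ccr7 (11.8), Batf3 (11.3) and Flt3 (6.2) followed, then Fscn1 (1.91), Zbtb46 (0.442), Xcr1 (0.412) and Clec9a (0.101). In FVB BM IMs, Cd209a (46.7 CPM per kb) led Batf3 (7.63), Cd83 (5.2) and Flt3 (1.3), and each of the other 5 was at most 0.137 CPM per kb.

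The wider DC program was read from lists of other genes, and all its MHC class II genes and most of its maturation genes tested rose in all 3 tumor settings. Of all tested genes, 33.3% (primary tumors), 20.2% (lymph nodes) and 13.9% (LN4K1 lungs) were higher and 28.6%, 17.2% and 11% lower. Their median log2 fold changes were 0.08, -0.04 and 0.03. All 8 MHC class II genes measured were higher in each comparison, and their median rise on the log2 scale was 3.57 (primary tumors), 3.81 (lymph nodes) and 2.89 (LN4K1 lungs). Cd74, the invariant chain, rose from a mean of 306 to 5755 CPM in primary tumors (log2 fold change 4.21, SE 0.22, adjusted p = 4.87e-07) and to 9807 CPM in lymph nodes. H2-Ab1, a class II beta chain, rose from 132 to 1344 CPM in LN4K1 lungs (log2 fold change 3.28, SE 0.28, adjusted p = 3.66e-05). Ciita, the master activator of class II transcription, rose in all 3, by 4.62 (SE 0.40, adjusted p = 1.2e-05), 4.16 (SE 0.38, adjusted p = 2.28e-05) and 3.72 (SE 0.39, adjusted p = 0.000122), the first of which was 5.21 without FVB replicate 3.

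Of the other maturation genes, 19 of 21 tested were higher and none lower in primary tumors (median 3.24), 12 of 21 higher and none lower in lymph nodes (median 2.76), and 15 of 20 higher and 1 lower in LN4K1 lungs (median 2.79). Over all tested genes 33.3%, 20.2% and 13.9% were higher in the same order. Cd274, which encodes the checkpoint ligand PD-L1 and is induced by interferon in many cells, rose from 2.13 to 313 CPM in primary tumors (log2 fold change 7.17, SE 0.28, adjusted p = 1.49e-07), to 517 CPM in lymph nodes (7.91, SE 0.34, adjusted p = 3.09e-07) and from 3.32 to 44.8 CPM in LN4K1 lungs (3.68, SE 0.30, adjusted p = 2.46e-05). Its rise was larger in primary tumors than in LN4K1 lungs (interaction 3.50, SE 0.35, adjusted p = 2.86e-05). Il12b, the interleukin 12 subunit made by matured DCs, had no counts in FVB BM IMs and 3.41 CPM in primary tumors, at least 335-fold higher against a floor of 3 counts over the FVB group, or at least 217-fold without primary tumor replicate 5, which held 8.31 CPM. It passed the low-count filter through the primary tumor libraries alone, and so had to differ, and the count of 19 includes it. Other genes in these counts also passed through TIM libraries alone, among them Cd200 and Pdcd1lg2, with 1 and 4 counts over the FVB group. In LN4K1 lungs Ccl22 (1 count over the DBA2 group), Cd200 (4), Pdcd1lg2 (4) and Tnfrsf9 (0) did so. Fabp5, a fatty acid binding protein, was the gene that was lower in LN4K1 lungs (-1.03, SE 0.20, adjusted p = 0.00461).

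Genes of DC identity moved less uniformly. Their counts stand beside 33.3%, 20.2% and 13.9% of all tested genes higher and 28.6%, 17.2% and 11% lower in primary tumors, lymph nodes and LN4K1 lungs. Of 7 other shared classical DC genes, 4 of 7 tested were higher in primary tumors, 3 of 5 in lymph nodes and 2 of 6 in LN4K1 lungs, with none lower and medians of 1.69, 2.58 and 0.22. Itgax, encoding CD11c, rose from 0.854 to 61.3 CPM in primary tumors (log2 fold change 6.13, SE 0.47, adjusted p = 5.88e-06) and to 78.1 CPM in lymph nodes (6.51, SE 0.55, adjusted p = 1.57e-05). In LN4K1 lungs it rose from 1.66 to 10.0 CPM (2.53, SE 0.52, adjusted p = 0.00655), or by 3.37 without DBA2 replicate 2. Of 10 other cDC1 genes, 7 of 10 tested were higher and 2 lower in primary tumors (median 0.91), 6 and 1 of 9 in lymph nodes (median 1.17) and 2 and 1 of 9 in LN4K1 lungs (median 0.28). Tlr3, the double-stranded RNA sensor of cDC1s, rose by 3.53 (SE 0.61, adjusted p = 0.000773) and Cadm1, a cDC1 adhesion molecule, by 2.37 (SE 0.28, adjusted p = 7.27e-05) in primary tumors, while Cd24a fell by 1.64 (SE 0.26, adjusted p = 0.000423) there and by 1.84 (SE 0.18, adjusted p = 7.15e-05) in LN4K1 lungs.

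Of 12 other genes of cDC2s, monocyte-derived DCs and the Cd209 cluster, 2 were higher and 3 lower in primary tumors (median 0.22), 1 and 2 in lymph nodes (median 0.32) and 2 and 1 of 11 tested in LN4K1 lungs (median 0.37). Over all tested genes 33.3%, 20.2% and 13.9% were higher and 28.6%, 17.2% and 11% lower in the same order. The related lectin gene Cd209f fell from 6.67 CPM in FVB marrow to 0.0277 CPM in primary tumors (log2 fold change -7.89, adjusted p = 8.61e-05, or -9.94 without primary tumor replicate 3), while Mgl2, a galactose-binding lectin of cDC2s, fell by 2.44 (SE 0.38, adjusted p = 0.00135) in LN4K1 lungs. All 8 plasmacytoid DC genes listed were higher in primary tumors and lymph nodes and 6 of 8 in LN4K1 lungs, with none lower and medians of 6.33, 7.37 and 4.44, the highest of the lists. Some passed the low-count filter through TIM libraries alone. Among these were Pacsin1, with 5 counts over the FVB group and 0 over the DBA2 group, and in LN4K1 lungs Cox6a2, with 0 over the DBA2 group. Siglech also needed its lung libraries to pass against DBA2 BM IMs, which held 46, 1 and 0 counts of it. Siglech, a lectin of plasmacytoid DCs, rose from 0.731 to 121 CPM in primary tumors and to 244 CPM in lymph nodes, and from 0.161 to 25.7 CPM in LN4K1 lungs (adjusted p = 9.85e-06, 0.00016 and 0.00386). Its log2 fold change of 7.34, 8.38 and 7.23 was 8.09 and 9.09 without FVB replicate 2, and 11.9 without DBA2 replicate 1.

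**Figure D4:**
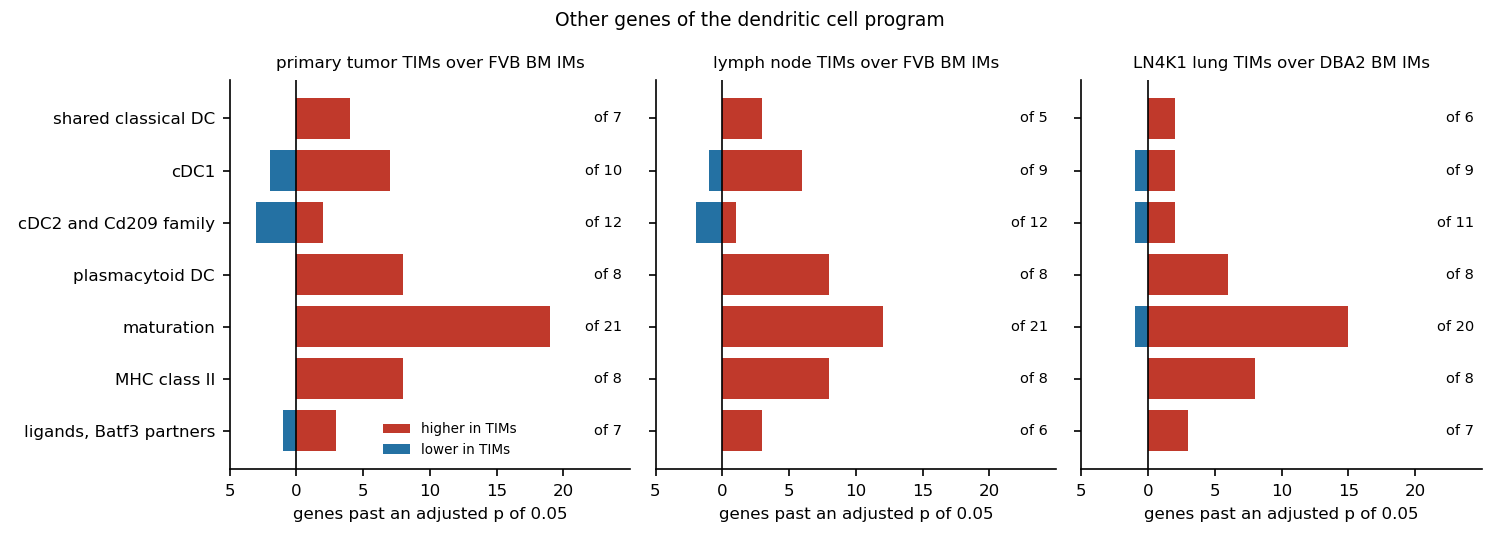
Number of genes of each list (horizontal axis) that were higher (red, to the right) or lower (blue, to the left) in TIMs at an adjusted p under 0.05, with the number tested at the right of each bar, in 3 comparisons. All 8 MHC class II genes were higher in each, and 19 of 21, 12 of 21 and 15 of 20 maturation genes, where 33.3%, 20.2% and 13.9% of all tested genes were higher.

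Of 10 genes that encode ligands of these receptors or partners of Batf3, 7 were tested in primary tumors, where 3 were higher and 1 lower (median 1.63). In lymph nodes 3 of 6 were higher (median 0.78), and in LN4K1 lungs 3 of 7 (median 1.67), with none lower in either. Over all tested genes 33.3% were higher in primary tumors, 20.2% in lymph nodes and 13.9% in LN4K1 lungs. Batf2, an interferon-induced relative of Batf3, rose by 4.31 (SE 0.21, adjusted p = 4.04e-07) in primary tumors, 4.39 (SE 0.26, adjusted p = 1.71e-06) in lymph nodes and 2.82 (SE 0.26, adjusted p = 5.13e-05) in LN4K1 lungs. Junb, an AP-1 partner, rose by 1.63 (SE 0.12, adjusted p = 2.73e-06), 1.42 (SE 0.17, adjusted p = 0.00017) and 1.67 (SE 0.17, adjusted p = 0.000105). Batf, the other close relative, followed Batf3 in rising in LN4K1 lungs (0.88, SE 0.13, adjusted p = 0.000911) and in its interaction (-0.66, SE 0.15, adjusted p = 0.00476), and its values in primary tumors (0.20, adjusted p = 0.112) and lymph nodes (0.18, adjusted p = 0.37) did not pass the threshold.

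The LN4K1 lung comparison was repeated without replicate 3, where 5 of the 9 genes changed in place of 4. Of all 13592 genes tested in that fit, 20.2% were higher and 16.9% lower, also more than with the library. On the log2 scale Flt3 then stood at 1.69 (adjusted p = 1.95e-05), Batf3 at 1.90 (adjusted p = 8.7e-06), Xcr1 at 0.67 (adjusted p = 0.123), Clec9a at -1.71 (adjusted p = 0.00963), Zbtb46 at 0.42 (adjusted p = 0.706) and Ccr7 at 1.77 (adjusted p = 0.257). The gene gained was Fscn1.

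Inside groups the 9 genes did not move as 1 block. Over the 36 pairs, r ranged from -0.67 for Flt3 with Batf3 to 0.56 for Batf3 with Cd83, in the same 21 libraries. The cDC1 genes were only weakly alike, at r = 0.20 for Xcr1 with Clec9a, -0.13 for Xcr1 with Batf3 and -0.24 for Clec9a with Batf3. Clec9a was at 0 in FVB replicate 3, primary tumor replicate 3 and lymph node replicates 1 and 2, so its r depends on values at the floor. Cd209a and Cd83 (r = 0.51) were both highest in LN4K1 lung replicate 3, while Zbtb46, which was 0 there, ran against Cd209a (r = -0.65) and was most like Angptl2 (r = 0.94), D8Ertd82e (r = 0.92) and Btd (r = 0.92).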

How the data were processed

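RNA of sorted IMs was measured in 21 libraries of 5 groups, taken from the labels. The deposited values are raw counts per gene symbol. The authors trimmed reads with BBDuk, aligned pairs to mm10 with BBMap and counted with featureCounts (1.5.2 in the submitters' processing notes, with SAMtools 1.8); libraries were not strand-specific. 

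The libraries of each comparison alone entered its fit, in edgeR 4.0.16 (R 4.3.3) by robust quasi-likelihood tests after TMM scaling and a filter (10 counts in the smallest group, total 15), across all genes with Benjamini-Hochberg adjustment at 0.05. The study's thresholds were 0.0001 and a log2 fold change of 1. SE is the absolute log2 fold change over the square root of F. CPM used TMM factors over all libraries, and log2 CPM a prior of 2 counts. Fits were tested on simulated data. The block of replicate numbers, other scaling and filters, 1 fit of all groups, DESeq2 1.42.0 with and without shrinkage, and leaving out each library were tried. Totals of 80772922 to 101043568 counts set the precision; 3 counts was the limit that a count of 0 allows. Positions and exon lengths are from GENCODE vM21 (GRCm38).

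The 9 genes and all lists were chosen with earlier results of these data known. Of each list, up to 4 changed genes per comparison with the largest absolute log2 fold change could be named; genes named for their likeness to a member were its 3 highest r. Outside that rule, and after their values were seen, Fabp5 and Cd274 were named in LN4K1 lungs and Batf in both LN2E1 comparisons. Kit stands in both the shared DC and the progenitor list, and 4 plasmacytoid markers and 4 DC markers are also in the DC lists.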

Additional observations from a re-analysis of the deposited data

Results flagged for a closer look

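Among 27 tests of single groups of 5 libraries, 1 library stood apart: LN4K1 lung replicate 3, with 0 CPM of Zbtb46 (0 counts) against 0.76 to 1.58 CPM in the other 4. Chance alone flags about 1 in 20 such groups.

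The change over BM IMs differed between LN2E1 primary tumors and LN4K1 lungs for 3 of the 9 genes by edgeR's interaction test, 2 higher and 1 lower. Of all 15182 genes tested in this contrast, 13.2% were higher and 13.3% lower, so a count of this size is not particular to these genes. The interaction was -1.48 for Batf3 (adjusted p = 0.00116), 5.17 for Ccr7 (adjusted p = 0.00708) and 6.94 for Fscn1 (adjusted p = 0.00191) on the log2 scale. Fscn1 passed the low-count filter of this contrast through its TIM libraries alone. The Fscn1 size rests on 1 count in FVB BM IMs and was 8.75 without FVB replicate 2 and 6.22 without DBA2 replicate 1. The Ccr7 size was 3.66 without DBA2 replicate 2 (adjusted p = 0.0658), 5.88 without FVB replicate 2 and 4.57 without FVB replicate 3. Line, strain, route and site cannot be told apart in this contrast.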

How the results depend on the processing

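Of the values of the 9 genes under all alternatives, 776 kept their direction and their side of the threshold, 29 lost the call, 17 gained it and 20 turned direction. The genes meeting the stricter rule of the study were 4 in primary tumors, with 2 under a filter of 10 counts in every library and 0 with the replicate block. In lymph nodes they were 1, with 3 when all 5 groups shared a fit, 4 in DESeq2 with or without shrinkage and 0 with the block. In LN4K1 lungs they were 0, with 1 under either other filter, 3 with all groups in a fit, 4 in DESeq2 with or without shrinkage, and 0 to 2 when single libraries were left out (2 without LN4K1 lung replicate 3). Of the 5 changed genes in lymph nodes, 3 were left under the strict filter and 3 with the block. Between lymph nodes and primary tumors, 2 changed genes became 1 with all groups in a fit, 1 with the block and 0 to 2 with a library left out. Between strains, 1 became 0 with all groups in a fit and 0 to 1 with a library left out, and in the interaction 3 became 5 in DESeq2 and 2 to 5 with a library left out. Shares of all genes under these settings are not given here, and the cause of these shifts was not tested.

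Directions turned for genes that did not pass the test in these comparisons. With the block, Zbtb46 and Clec9a in lymph nodes were at -0.68 and -4.38, and Cd83 between strains at -0.054. With single libraries left out, the log2 fold change ran from -0.55 to 1.77 for Clec9a in primary tumors, from -0.38 to 1.54 for Zbtb46 and -0.051 to 0.77 for Cd209a in LN4K1 lungs, and from -0.20 to 0.045 for Batf3 between lymph nodes and primary tumors. Between strains it ran from -1.66 to 0.26 for Zbtb46, -0.72 to 1.44 for Ccr7 and -0.47 to 0.29 for Cd83.

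Correlations of same-numbered libraries were low, from -0.24 to 0.23 in the comparisons of 2 groups. Of 6 libraries, 1, 4, 5, 1 and 2 were most like their own number in primary tumors, lymph nodes, LN4K1 lungs, lymph nodes against primary tumors and between strains. The higher counts in lymph nodes and LN4K1 lungs leave pairing by number unsettled there, and the main fits used no pairing. Zbtb46, Clec9a, Fscn1 and Ccr7 each had 0 counts in at least 1 library, and libraries of like depth in the same group held counts of Zbtb46 and Clec9a.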
